A study of Rattus norvegicus with 24 samples.

Results

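The genes of the mitochondrial respiratory chain and of the ATP synthase were examined in lumbar dorsal root ganglia (DRG) of the rat. Members were all probes whose gene symbol in the platform annotation names a subunit or assembly factor of complexes I to IV, cytochrome c or the ATP synthase (symbols starting with Nduf, Sdha to Sdhd, Uqcr, Cox4 to Cox8 or Atp5, and Cyc1 and Cycs). The rule took 72 of the 22517 probes of the Illumina RatRef-12 array, 1 probe for each of 72 genes among 13336 genes with a symbol. The members comprised 30 probes for complex I, 7 for its assembly factors, 4 for complex II, 2 for its assembly factors, 4 for complex III, 1 for cytochrome c, 11 for complex IV and 13 for the ATP synthase. The study asked how repeated morphine or oxycodone changed gene expression in the ganglion of rats with a painful neuropathy caused by vincristine, an anticancer drug that binds tubulin. RNA of 24 male Sprague-Dawley rats aged 3 months was hybridised to 24 arrays, 1 for every animal, and the 6 groups held 4 animals each. Vincristine-morphine, vincristine-oxycodone and vincristine-saline treated rats received vincristine (0.1 mg/kg/day) over 10 days of injections, then 5 days of morphine, the same dose of oxycodone, or saline. Saline-morphine, saline-oxycodone and saline-saline treated rats, the control arm, received saline in place of vincristine and the same 3 treatments after it. All ganglia were taken on day 19, at the end of the opioid or saline injections, so that an early response to vincristine was not sampled.

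The respiratory chain of the inner mitochondrial membrane passes electrons from NADH and succinate to oxygen. Complexes I, III and IV pump protons across the membrane as they do so, complex II pumps none, and the ATP synthase makes ATP from the proton gradient. Complex I takes electrons from NADH and complex II from succinate, complex III hands them to cytochrome c, and complex IV, cytochrome c oxidase, passes them to oxygen. Nuclear genes, the ones measured here, encode most subunits, and a few further subunits come from mitochondrial DNA. Sensory neurons carry mitochondria along very long axons, and their ATP supply has been studied as a point of vulnerability in neuropathies that follow chemotherapy.

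The 12 kept probes of sensory neuron markers averaged 11.51 to 11.68 on the log2 scale over all 24 arrays, while the probes for Calca, Mrgprd and Scn9a reached the detection cutoff on no array. The median raw signal was between 48.6 and 72.8 per array, and 6112 to 6907 probes were detected on each array. A probe was kept when its detection p, the share of negative control probes at least as bright, was at most 0.0005 on at least 4 arrays. In the table of signals the columns form 4 runs of 6 arrays, called sets here. Each set holds 1 array from all 6 groups, and the sources do not say what the sets are. The sets carried 99.4% of the variance of the first principal component over all kept probes, so each comparison was also fitted with the set as a block.

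Most members on the array were well above background in the ganglion. The array covers the complexes only in part, with 4 of 10 listed subunits of complex III, 6 of 7 listed core subunits of complex I and no probe named for Cyc1. Of the 72 members 63 were kept, beside 7043 of all 22517 probes. Of the 63 kept members 61 were detected on all 24 arrays, beside 5728 of the 7043 kept probes (81.3%). All 4 members each of complex II and complex III, and cytochrome c, were detected on every array. The same held for the 6 members that are nuclear-encoded core subunits of complex I, most of which bind its flavin or iron-sulfur clusters (Ndufs1, Ndufs3, Ndufs7, Ndufs8, Ndufv1 and Ndufv2), and for 21 of its 23 accessory subunits. The 7 members detected on no array were Ndufb4, Ndufs4 and the pseudogene Ndufs6-ps1 of complex I, the assembly factor Ndufaf4, Cox6c and Cox8c of complex IV, and Atp5mc3 of the ATP synthase. A probe below the cutoff gives no level for its gene, and nothing is said of these 7 genes below. Atp5mk and Ndufaf2 were kept but detected on only 6 and 15 arrays, and Cox6a2 and Cox8b were detected on 3 arrays each and were not kept.

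Cox6a2 and Cox8b, the heart and skeletal muscle isoforms of complex IV subunits, had the largest spread over the arrays of all members. Cox6a2 measured 6.98, 4.49, 6.77 and 4.67 in vincristine-morphine rats, 4.38, 4.77, 6.17 and 5.47 in vincristine-oxycodone rats and 4.41, 4.74, 4.99 and 4.53 in vincristine-saline rats, all on the log2 scale of the normalized signal. It measured 4.43, 4.49, 4.55 and 7.62 in saline-morphine rats, 4.48, 4.48, 4.59 and 4.31 in saline-oxycodone rats and 4.47, 4.43, 4.68 and 4.59 in saline-saline rats. The high values thus came from 1 or 2 arrays each of 3 groups, which overlapped at the low end with all other groups, and no group was high as a whole. Cox8b gave the same picture, with 7.03 and 6.76 in replicates 1 and 3 of the vincristine-morphine rats, 6.22 and 5.30 in replicates 3 and 4 of the vincristine-oxycodone rats, and 7.24 in replicate 4 of the saline-morphine rats. All its other values were between 4.46 and 5.17. Both probes passed the detection cutoff on the same 3 arrays, replicates 1 and 3 of vincristine-morphine and replicate 4 of saline-morphine. The low values of both genes did not pass the detection cutoff on their arrays, so no fold change is given. This cutoff is strict: on the arrays with low values the detection p of Cox8b ran from 0.0036 (replicate 2 of vincristine-saline) to 0.28 (replicate 1 of vincristine-oxycodone). That of Cox6a2 ran from 0.0097 (replicate 3 of vincristine-saline) to 0.76 (replicate 4 of saline-oxycodone).

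**Figure D1:**
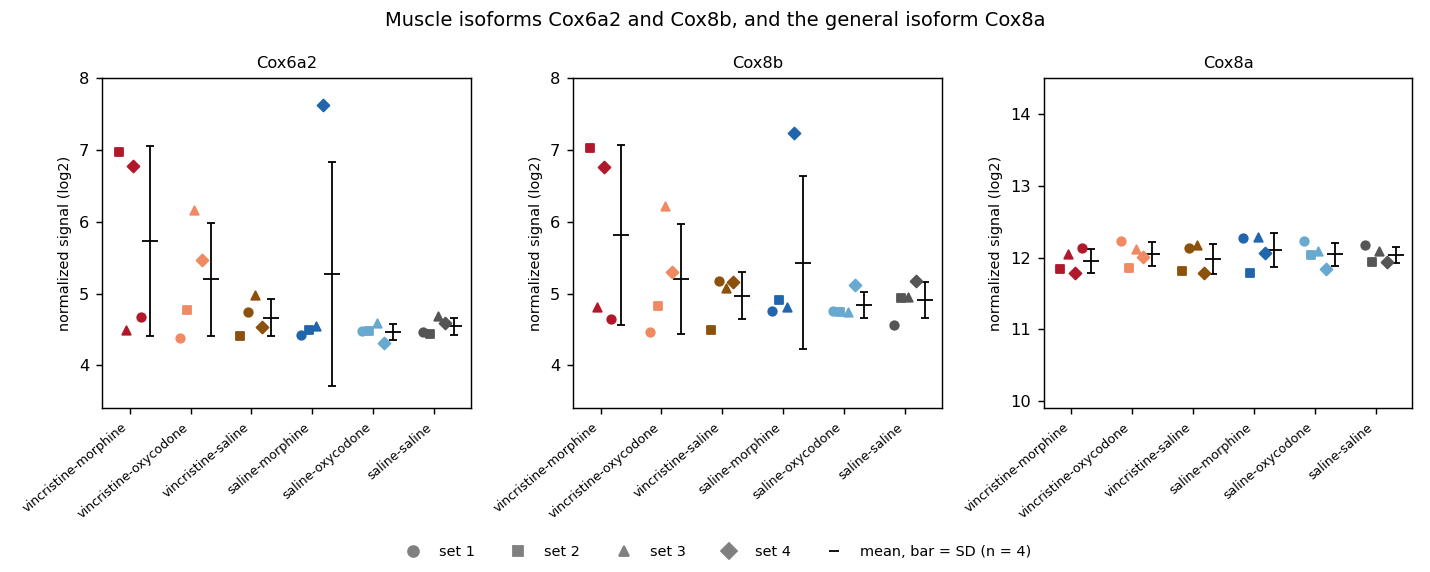
Normalized signal (log2, vertical axes) of the muscle isoforms Cox6a2 and Cox8b and of the general isoform Cox8a in the 6 groups. Points are arrays, their shapes the 4 sets of the signal table, and black bars the mean ± SD (n = 4). Both muscle isoforms lie above 6 on the same 4 arrays, and Cox8a lies between 11.79 and 12.28 on all 24.

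The mean of skeletal muscle markers moved with these values, but not every marker did. Myh7 measured 5.87 in replicate 4 of saline-morphine, against 6.63 in replicate 4 of saline-saline. Tnnc1 had its highest value, 6.95, in replicate 4 of saline-saline. Of 19 muscle probes on the array 11 were kept, and their mean ranged over 6.28 to 9.27 in vincristine-morphine, 6.29 to 8.11 in vincristine-oxycodone and 6.21 to 7.22 in vincristine-saline rats. It ranged over 6.14 to 9.65 in saline-morphine, 5.96 to 6.38 in saline-oxycodone and 5.999 to 6.75 in saline-saline rats, and Myh2, Myh4, Tnni1 and Tnnt1 were detected on no array. Only 3 of the 11 kept muscle probes were detected on all 24 arrays. A cut of 7.5 lay in the gap of their means in these data (7.22 to 7.77), so what follows is a description and not a test. The 5 arrays with a muscle mean above 7.5 were the 5 on which Cox6a2 measured 5.47 or more, against 4.99 or less on the other 19 arrays. For Cox8b, which brown fat also uses, the lowest value on these 5 arrays was 5.30 and the highest on the others 5.17. Of 10 probes for white and brown adipocytes 4 were kept, and Adipoq, Cidec, Lep, Pck1, Retn and Ucp1 were detected on no array. The mean of the kept adipocyte probes was 7.27 to 8.18 on the 5 arrays high in muscle markers, against 6.76 to 7.41 on the other 19, highest at 8.18 in replicate 1 of vincristine-morphine. The part of fat in the values of Cox8b was not tested. The general isoform Cox8a had no such pattern, between 11.79 and 12.28 on all arrays and between 11.79 and 12.12 on the 5 arrays high in muscle markers. Cox6a1, the general isoform beside Cox6a2, measured 13.82 to 14.01 on these 5 arrays, within its range of 13.67 to 14.11 on the other 19. The part of muscle RNA in any other member's values was not tested beyond leaving these 5 arrays out.

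The region around the transcription start is shown for Cox6a2 and Cox8b, which moved together, and for Cox8a as the general isoform. The sequences are from RefSeq (assembly GRCr8), 5′ to 3′ on the gene's strand, from 250 bases before the start to 50 after it. Capitals mark an E-box of the form CAGCTG, the site of muscle regulatory factors of the MyoD family, a MEF2 site of the form CTAAAAATA, or, for Cox8a, a core of ETS family sites, CGGAAG, here on the opposite strand. Cox6a2 lies on the minus strand at chr1:192219667-192219966, Cox8b on the minus strand at chr1:205408224-205408523 and Cox8a on the minus strand at chr1:213833574-213833873.
Cox6a2: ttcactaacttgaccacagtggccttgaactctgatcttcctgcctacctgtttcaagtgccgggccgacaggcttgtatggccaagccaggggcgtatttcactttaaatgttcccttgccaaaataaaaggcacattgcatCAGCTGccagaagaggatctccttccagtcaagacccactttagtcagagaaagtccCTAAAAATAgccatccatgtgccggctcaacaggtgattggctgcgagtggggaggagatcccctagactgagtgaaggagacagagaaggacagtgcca
Cox8b: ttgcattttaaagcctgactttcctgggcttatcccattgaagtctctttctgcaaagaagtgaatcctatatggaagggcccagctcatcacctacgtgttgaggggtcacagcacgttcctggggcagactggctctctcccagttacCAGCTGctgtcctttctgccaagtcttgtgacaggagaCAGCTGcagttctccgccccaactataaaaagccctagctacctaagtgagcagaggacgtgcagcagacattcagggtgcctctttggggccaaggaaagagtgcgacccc
Cox8a: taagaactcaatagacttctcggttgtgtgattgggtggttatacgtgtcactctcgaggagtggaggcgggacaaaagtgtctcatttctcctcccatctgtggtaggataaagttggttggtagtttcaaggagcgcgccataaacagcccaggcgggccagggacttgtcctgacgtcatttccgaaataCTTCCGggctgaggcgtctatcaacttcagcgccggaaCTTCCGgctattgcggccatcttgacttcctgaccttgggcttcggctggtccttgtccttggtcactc
In Cox6a2 the E-box stood 107 bases and the MEF2 site 50 bases before the start. Cox8b had E-boxes 100 and 62 bases before its start and no MEF2 site of this spelling, and Cox8a had neither, with ETS cores 57 and 19 bases before its start. Searched on both strands, the E-box was found in 15.1% of 33469 promoters of the same length and in 15.9% of the 63 members that had a promoter entry. The MEF2 spelling was found in 0.511% of all promoters and in 1 of the 63 members, Cox6a2. A match is a run of letters and does not show that a factor binds there.

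Between vincristine-treated and control rats no gene of the respiratory chain or ATP synthase passed the test, and the fitted differences were small. With 12 vincristine and 12 control rats over the 3 drug groups, 0 of 63 members passed the adjusted threshold of 0.05 (limma, Benjamini-Hochberg over 7043 probes), where 0.199% of all kept probes passed. At an unadjusted p under 0.05, 0 members were counted by limma, where 2.77% of all kept probes were, and 1 with the set as a block, where 6.62% were. The differences of the members were between -0.073 and 0.077 on the log2 scale with a median of -0.0029, 30 higher and 33 lower, and 25 higher after median centring of the arrays. These intervals were narrow, since 92.1% of the members' 95% intervals lay within ±0.25, against 75.8% over all kept probes. Fewer cells of a type and less RNA per cell cannot be told apart in whole ganglia.

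By complex the picture was the same. Among complex I members 13 were higher and 14 lower in vincristine-treated rats, among complex IV members 2 and 5, among ATP synthase members 6 and 6, and among complex III members 2 and 2. In complex I the accessory subunit Ndufb7 measured 11.48, 11.61, 11.35 and 11.29 in vincristine-morphine rats, 11.37, 11.48, 11.71 and 11.43 in vincristine-oxycodone rats and 11.58, 11.36, 11.48 and 11.31 in vincristine-saline rats. In control rats it measured 11.44, 11.65, 11.62 and 11.58 after morphine, 11.43, 11.53, 11.57 and 11.40 after oxycodone and 11.37, 11.64, 11.58 and 11.50 after saline. The arms overlapped over nearly their whole range, and the difference of -0.07 (SE 0.05, limma adjusted p = 1) was the 1 that passed an unadjusted p of 0.05 with the set block (limma adjusted p = 0.658). Ndufab1, the mitochondrial acyl carrier protein that is also a complex I subunit, differed by -0.054 (SE 0.038) and Ndufb8, an accessory subunit, by -0.072 (SE 0.051), both with a limma adjusted p of 1. Cytochrome c had the smallest p of all members, with 12.39 ± 0.12 log2 units in vincristine-treated and 12.31 ± 0.12 in control rats (SD, n = 12 each), a difference of 0.08 (SE 0.05, limma adjusted p = 1). The rat genome carries many processed copies of the cytochrome c gene, and the sequence of the probe was not used here.

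The same vincristine-treated ganglia differed strongly in red cell transcripts, which are listed here as markers of another cell type. The list was chosen with earlier results of these data known, so its count is a description and not a test. Of 14 probes for red blood cells and reticulocytes 9 were kept, 6 of them detected on all 24 arrays. Of the 9 kept probes 7 passed the adjusted threshold, where 0.199% of all kept probes did, and the median difference of the 9 was 1.19. Their mean was 10.33 to 11.39 in vincristine-morphine, 10.09 to 10.38 in vincristine-oxycodone and 10.00 to 11.12 in vincristine-saline rats, against 8.72 to 9.02 in saline-morphine, 8.22 to 9.10 in saline-oxycodone and 8.70 to 9.39 in saline-saline rats. Alas2, Epb42, Hba-a2, Rhag and Slc4a1 were detected on no array, and the part of these cells in the members' values was not tested.

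**Figure D2:**
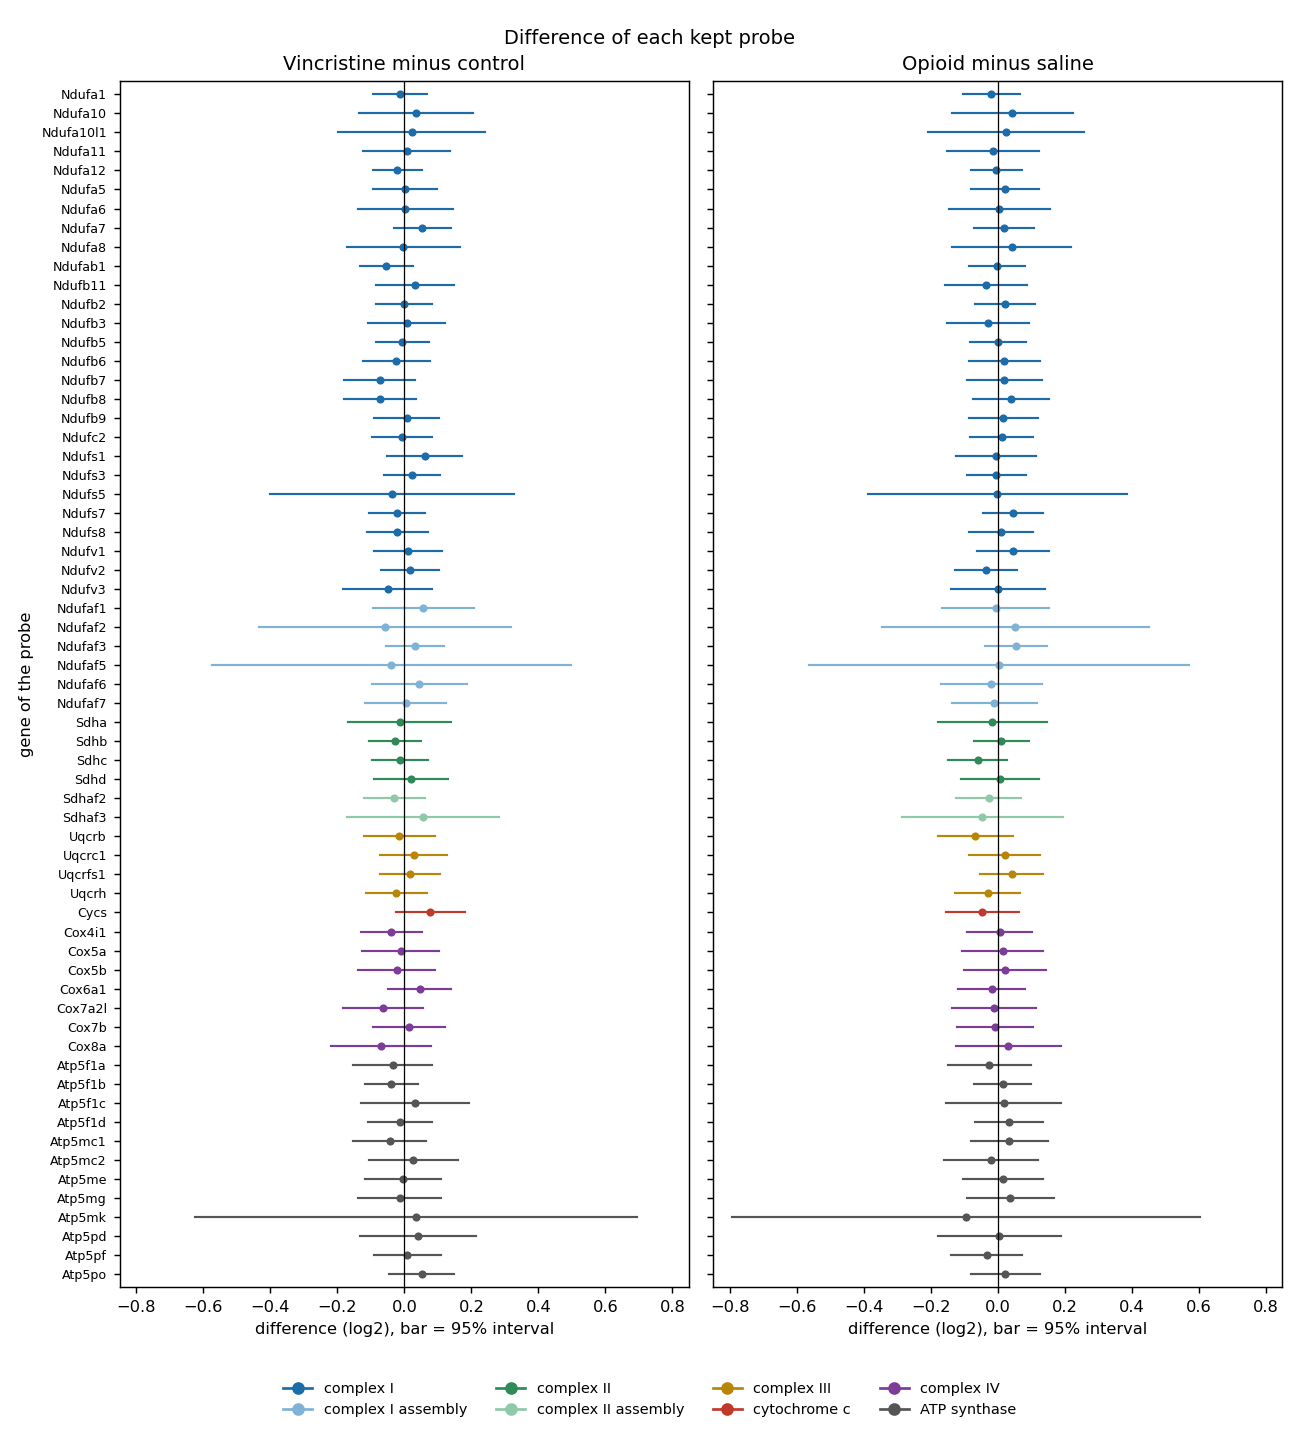
Difference of each of the 63 kept members (rows, coloured by complex) between vincristine-treated and control rats (left) and between opioid-treated and saline-treated rats (right), on the log2 scale. Points are fitted differences and bars 95% intervals from 12 and 12 arrays (left) and 16 and 8 arrays (right). Every interval includes 0, and the widest belong to Atp5mk and Ndufaf5.

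Between opioid-treated and saline-treated rats, too, no member passed the test. With 16 opioid-treated and 8 saline-treated rats over both arms, 0 of 63 members passed the adjusted threshold and 0 passed an unadjusted p of 0.05 in limma, with or without the set block. Of all kept probes 0.114% passed the first and 2.9% the second (7% with the set block). The differences were between -0.094 and 0.054 with a median of 0.0049, 36 higher and 27 lower, and 90.5% of the 95% intervals lay within ±0.25, against 71.2% over all kept probes. The smallest p belonged to Sdhc, a membrane anchor of complex II, which differed by -0.059 (SE 0.043, limma adjusted p = 1). Uqcrb, a subunit of complex III, differed by -0.067 (SE 0.054), the assembly factor Ndufaf3 by 0.054 (SE 0.044) and the core subunit Ndufs7 by 0.045 (SE 0.043), each with a limma adjusted p of 1.

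Morphine and oxycodone, opioid agonists on the same morphinan skeleton, of which oxycodone carries a ketone, an added hydroxyl group and a methyl ether, were given at the same dose for the same time and can be compared directly. In control rats 0 of 63 members and 0 of 7043 probes passed the adjusted threshold, and 3 members (4.76%) passed an unadjusted p of 0.05 in limma, where 3.81% of all kept probes did. The 3 were the accessory subunits of complex I Ndufa7, Ndufa10 and Ndufa10l1. The last 2 have nearly the same values on all arrays, and counted once they leave 2 of 62 (3.23%). With the set block 5 members passed it, where 10% of all kept probes did. By the methods' t-test on the deposited log2 values 5 of 62 members did, where 2.89% of the 6535 probes it could test did, and 0 passed after adjustment. Ndufa10 and Ndufa10l1 were both among these 5 and were counted separately there. The median difference of the members was 0.035, with 45 higher and 18 lower in saline-morphine than in saline-oxycodone rats. After median centring in place of quantile normalization 61 of 63 were higher with a median of 0.21, but the median of all kept probes was then 0.19. At 4 rats against 4, 47.6% of the members' 95% intervals lay within ±0.25, against 20.8% over all kept probes.

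Ndufa7 was the member with the smallest p of any comparison. It measured 8.93, 8.88, 8.84 and 8.88 in saline-morphine rats, against 8.63, 8.54, 8.78 and 8.56 in saline-oxycodone rats. The 2 groups did not overlap, which held for 1 of 63 members in control rats and for 1.58% of all kept probes. The difference was 0.25 (SE 0.07, 95% interval 0.11 to 0.40, limma adjusted p = 1), and it was positive in all 4 sets, from 0.057 to 0.35. In saline-saline rats Ndufa7 measured 8.87, 8.77, 8.73 and 8.75, of which the first lay in the range of the saline-morphine rats and the other 3 in that of the saline-oxycodone rats, with a difference of -0.15 for oxycodone (SE 0.07, limma adjusted p = 1) and 0.10 for morphine (SE 0.07, adjusted 1).

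Ndufa10 and Ndufa10l1 ran the other way. Ndufa10 measured 11.66, 12.15, 11.70 and 11.89 in saline-morphine rats, against 12.11, 12.24, 12.23 and 12.38 in saline-oxycodone rats, a difference of -0.39 (SE 0.14, limma adjusted p = 1). Ndufa10l1 measured 11.45, 12.18, 11.52 and 11.67 in saline-morphine rats, against 11.99, 12.14, 12.32 and 12.29 in saline-oxycodone rats, a difference of -0.48 (SE 0.18, limma adjusted p = 1). In both genes replicate 2 of the saline-morphine rats lay within the range of the saline-oxycodone rats, and the other 3 lay below it. Saline-saline rats covered most of the span of both groups, from 11.61 to 12.19 for Ndufa10 and from 11.51 to 12.17 for Ndufa10l1. These 2 probes followed each other closely over the 24 arrays (Pearson r = 0.97, Spearman rho = 0.95, given as a description), and their difference stayed between -0.085 and 0.23. The next most like Ndufa10 among all kept probes with a name was Ttll1, at r = 0.69. RefSeq lists Ndufa10 among the older names of Ndufa10l1. The sequences of the probes were not used here, and whether these 2 probes bind the same transcripts was not tested.

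**Figure D3:**
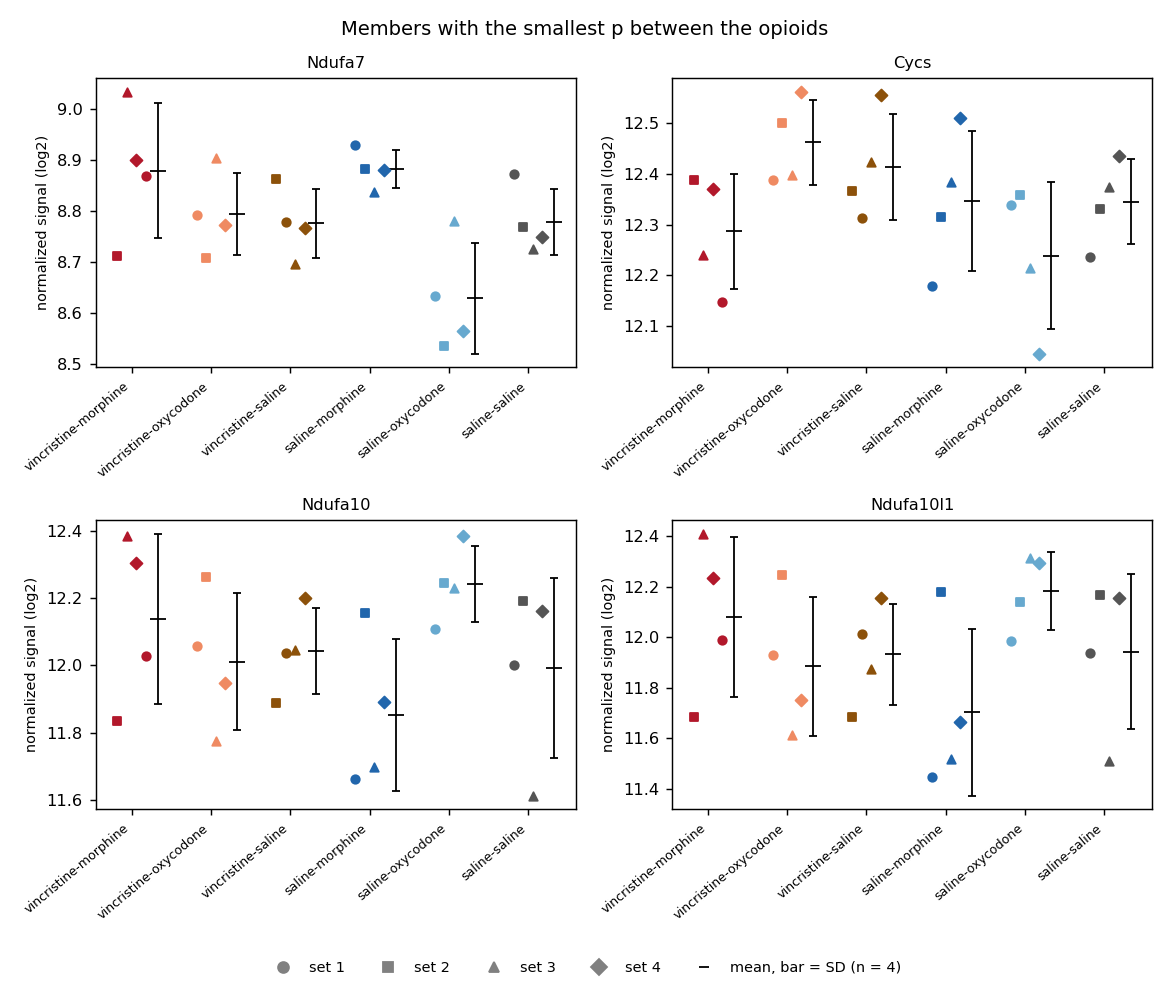
Normalized signal (log2, vertical axes, each with its own range) of Ndufa7, Cycs, Ndufa10 and Ndufa10l1 in the 6 groups. Points are arrays, shapes the 4 sets of the signal table, and black bars the mean ± SD (n = 4). Ndufa7 does not overlap between saline-morphine rats (8.84 to 8.93) and saline-oxycodone rats (8.54 to 8.78), and Ndufa10 and Ndufa10l1 follow each other over the arrays.

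Between the opioids in vincristine-treated rats, cytochrome c had the smallest p. Between vincristine-morphine and vincristine-oxycodone rats 0 of 63 members and 0 of 7043 probes passed the adjusted threshold in limma, and 0 members passed an unadjusted p of 0.05, where 0.753% of all kept probes did. With the set block 1 member, Cycs, passed the unadjusted threshold, where 2.64% of all kept probes did, and by the methods' t-test 2 of 62 did, Uqcrb and Cycs, where 1.15% of the 6429 probes it could test did, and 0 passed after adjustment. Cytochrome c, the soluble carrier between complexes III and IV, measured 12.39, 12.24, 12.37 and 12.15 in vincristine-morphine rats, against 12.39, 12.50, 12.40 and 12.56 in vincristine-oxycodone rats. The groups met at 12.39, and the difference of -0.18 (SE 0.09, limma adjusted p = 1) was negative in all 4 sets, from -0.24 to -0.11. Uqcrb measured 12.47, 12.51, 12.43 and 12.47 in vincristine-morphine rats, against 12.52, 12.61, 12.64 and 12.54 in vincristine-oxycodone rats, and these 2 groups did not overlap. This held for 1 of 63 members and for 0.625% of all kept probes. Its difference was -0.11 (SE 0.09, limma adjusted p = 1). Ndufv3, the accessory subunit beside the flavin site of complex I, differed by -0.15 (SE 0.11) and Ndufa7 by 0.08 (SE 0.07), both with an adjusted p of 1. The median over the members was -0.018 with 27 higher and 36 lower, and 0.00095 with 32 higher after median centring. When the 5 arrays high in muscle markers were left out, which took 2 arrays from each of these groups, the mean difference over all members was 0.031 in place of -0.011. The arrays left are of sets 1 and 3 for vincristine-morphine and of sets 1 and 2 for vincristine-oxycodone, and within set 1, the one they share, the difference was -0.036.

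In control rats the mean difference of cytochrome c had the other sign, at 12.18, 12.32, 12.38 and 12.51 after morphine, against 12.34, 12.36, 12.21 and 12.04 after oxycodone (difference 0.11, SE 0.09, limma adjusted p = 1). That difference was positive in only 2 of the 4 sets, from -0.16 to 0.47. The interaction, the morphine minus oxycodone difference in vincristine-treated rats less that in control rats, was -0.28 for Cycs (SE 0.12), 0.68 for Ndufa10l1 (SE 0.26) and 0.52 for Ndufa10 (SE 0.20). These were the 3 members with an unadjusted p under 0.05, where 2.98% of all kept probes had one, and 0 of 63 members and 0 of 7043 probes passed the adjusted threshold in limma. With Ndufa10 and Ndufa10l1 counted once they were 2 of 62 (3.23%), and with the set block 5 of 63 members passed the unadjusted threshold, where 8.77% of all kept probes did. Ndufa7 had the next smallest p, with -0.17 (SE 0.10). For Ndufa10 and Ndufa10l1 the vincristine arm had wide spreads within groups, with 11.84, 12.38, 12.30 and 12.03 for Ndufa10 in vincristine-morphine rats, against 12.06, 12.26, 11.78 and 11.95 in vincristine-oxycodone rats.

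Single comparisons of 4 rats with 4 gave no call either. Each opioid with saline in each arm, and vincristine with control under each of the 3 treatments, left 0 of 63 members past the adjusted threshold in limma, and 0 to 2 members passed an unadjusted p of 0.05. The 2 were Cycs and Ndufa7 under oxycodone, where 3.08% of all kept probes passed it. In vincristine-treated rats 1.82% of all kept probes passed the unadjusted threshold between morphine and saline and 1.65% between oxycodone and saline, and in control rats 2.09% and 2.67% did. Between vincristine-treated and control rats 2.2% passed it under morphine and 1.77% under saline. The adjusted threshold was passed by 0.071% of all kept probes under morphine, 0.0142% under oxycodone and 0.0284% under saline in that comparison, and by 0% in the comparisons of an opioid with saline. With the set block 0 to 5 members passed the unadjusted threshold. The 5 under morphine were Ndufa10, Ndufb7, Ndufaf2, Ndufaf5 and Cox8a (6.4% of all kept probes passed it), and the 5 under oxycodone were Cycs, Ndufa7, Ndufb8, Ndufs1 and Sdhaf3 (8.12%). Between vincristine and control under saline they were Ndufab1 and Ndufb11 (4.23%), between morphine and saline Ndufb11 and Ndufv3 in vincristine-treated rats (5.03%) and 0 in control rats (5.57%). Between oxycodone and saline there were 0 in vincristine-treated rats (3.89%), and Ndufa7 and Sdhaf3 in control rats (7.28%). Under oxycodone Cycs was 12.46 ± 0.08 in vincristine-oxycodone rats and 12.24 ± 0.14 in saline-oxycodone rats (SD, n = 4 each), a difference of 0.22 (SE 0.09, limma adjusted p = 1). Ndufa7 was 8.79 ± 0.08 in vincristine-oxycodone and 8.63 ± 0.11 in saline-oxycodone rats, a difference of 0.17 (SE 0.07, limma adjusted p = 1). This contrast shares its arrays with the comparisons of morphine and oxycodone above, and is not independent of them. In the F-test for any difference among the 6 groups 0 of 63 members passed the adjusted threshold in limma, where 0.142% of all kept probes did, and Ndufa7 alone had an unadjusted p under 0.05, where 2.29% of all kept probes had one.

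Averaged over its kept members, each complex had nearly the same level in all groups. For each array the mean of the members' deviations from their own means over the 24 arrays was taken as the level of a complex. The level of complex I had group means between -0.0091 in vincristine-oxycodone and 0.0084 in saline-morphine rats, with SDs of 0.012 to 0.072 (n = 4 per group). The ATP synthase had group means between -0.024 in saline-oxycodone and 0.020 in saline-morphine rats, and complex IV between -0.022 in vincristine-morphine and 0.029 in saline-morphine rats. Complex II lay between -0.017 in saline-oxycodone and 0.018 in saline-saline rats, and complex III between -0.027 in saline-oxycodone and 0.024 in vincristine-oxycodone rats. Each of these spans was smaller than the largest SD within a group of the same complex. Over the levels of 8 complexes or assembly groups and of all members in 5 comparisons, 8 of 45 differences kept 1 sign in all 4 sets. These differences share arrays and members, and some would keep 1 sign by chance. No share over all kept probes was taken, so the count and the cases below are descriptions only. Complex III was lower after morphine than after oxycodone in vincristine-treated rats in every set, with differences of -0.069 to -0.032, and complex IV was lower in vincristine-treated than in control rats in every set, with differences of -0.041 to -0.011. The looser detection filter and no filter, which bring Cox6a2 and Cox8b in, turned the mean difference of complex IV to 0.067 and 0.062. In control rats complex IV was higher after morphine than after oxycodone in every set, with differences of 0.0062 to 0.054. The interaction was negative in every set for complexes III and IV, and cytochrome c, a single gene, kept 1 sign in the vincristine comparison, in that of the opioids in vincristine-treated rats and in the interaction. No p is given for these levels, since they are means over a chosen list.

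**Figure D4:**
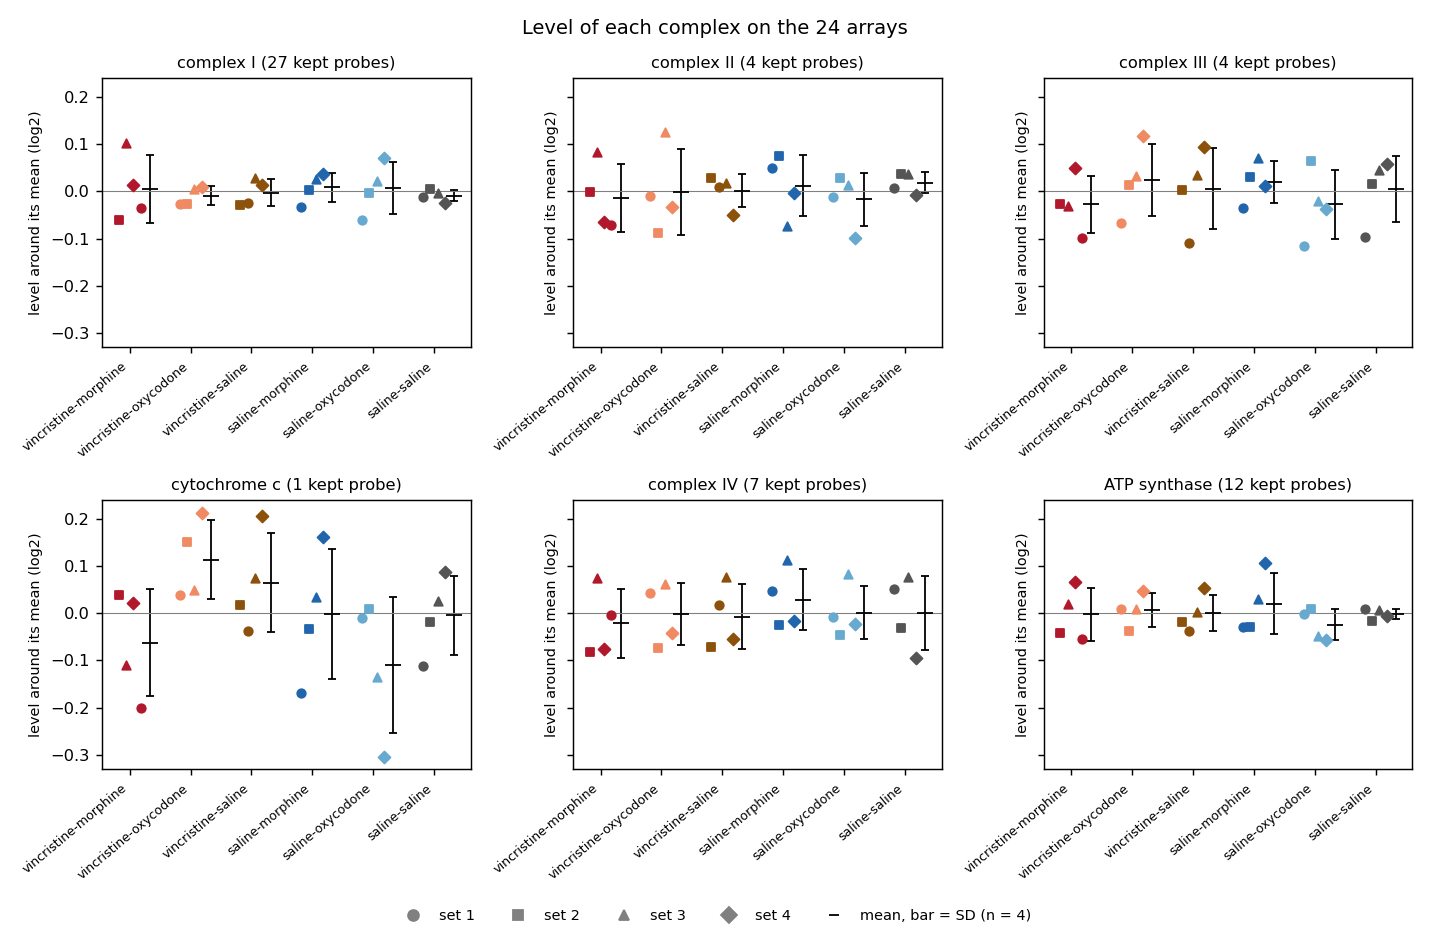
Level of each complex on the 24 arrays (mean over its kept probes of the log2 deviation from each probe's mean, vertical axes), by group. Points are arrays, shapes the 4 sets of the signal table, and black bars the mean ± SD (n = 4). Group means lie between -0.027 and 0.029 in complexes I to IV and the ATP synthase and between -0.11 and 0.11 for cytochrome c, a single gene, and in complex IV the arrays of set 3 lie above those of sets 2 and 4.

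Single genes are given as examples, among them the steadiest members of complexes III and IV and of the ATP synthase and the most variable of complex II. Ndufs1, the largest core subunit of complex I, averaged 10.82 ± 0.08 in vincristine-morphine, 10.89 ± 0.15 in vincristine-oxycodone and 10.85 ± 0.04 in vincristine-saline rats, against 10.84 ± 0.14 in saline-morphine, 10.74 ± 0.20 in saline-oxycodone and 10.81 ± 0.09 in saline-saline rats (SD, n = 4 each). Sdha, the flavoprotein of complex II, had group means of 10.18 to 10.21 in the vincristine groups, against 10.18 to 10.24 in the control groups, with SDs of 0.13 to 0.26. Uqcrfs1, the Rieske protein of complex III, had group means of 11.62 to 11.67 in the vincristine groups, against 11.60 to 11.65 in the control groups, with SDs of 0.049 to 0.13. Cox4i1, a regulatory subunit of complex IV, had group means of 12.61 to 12.62 in the vincristine groups, against 12.65 to 12.66 in the control groups, with SDs of 0.07 to 0.12. Cox8a, the most variable kept member of complex IV, had group means of 11.95 to 12.05 in the vincristine groups, against 12.04 to 12.11 in the control groups, with SDs of 0.12 to 0.23. In none of these genes was the span of the 6 means larger than the largest SD within a group. Atp5f1b, the catalytic beta subunit of the ATP synthase, was the steadiest of its complex, with group means of 13.43 to 13.48 in the vincristine groups, against 13.47 to 13.52 in the control groups, and SDs of 0.05 to 0.09.

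The members had a smaller median spread than the kept probes as a whole, and most of it lay between the array sets. Their median SD over the 24 arrays was 0.117 log2 units, against 0.162 over all kept probes, and 0.116 against 0.152 when only probes detected on all arrays were taken. Members and other probes were not matched by signal level, so a part of signal level in the smaller spread was not tested. Treatment group carried a median of 9.58% of a member's variance (all kept probes 11.7%), where 21.7% would be expected if arrays were exchangeable between groups, and the set a median of 55.7% (all kept probes 44.4%), where 13.0% would be expected. In 33 of 63 members (52.4%) the set carried more than 50% of the variance, against 43.2% of all kept probes. Of the 63 members only Ndufa7, Cycs, Ndufa10 and Ndufa10l1 had more of their variance between groups than between sets, with 55.3% between groups for Ndufa7. Ndufa10 and Ndufa10l1 have nearly the same values, and the share of all kept probes with this order was not counted.

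**Figure D5:**
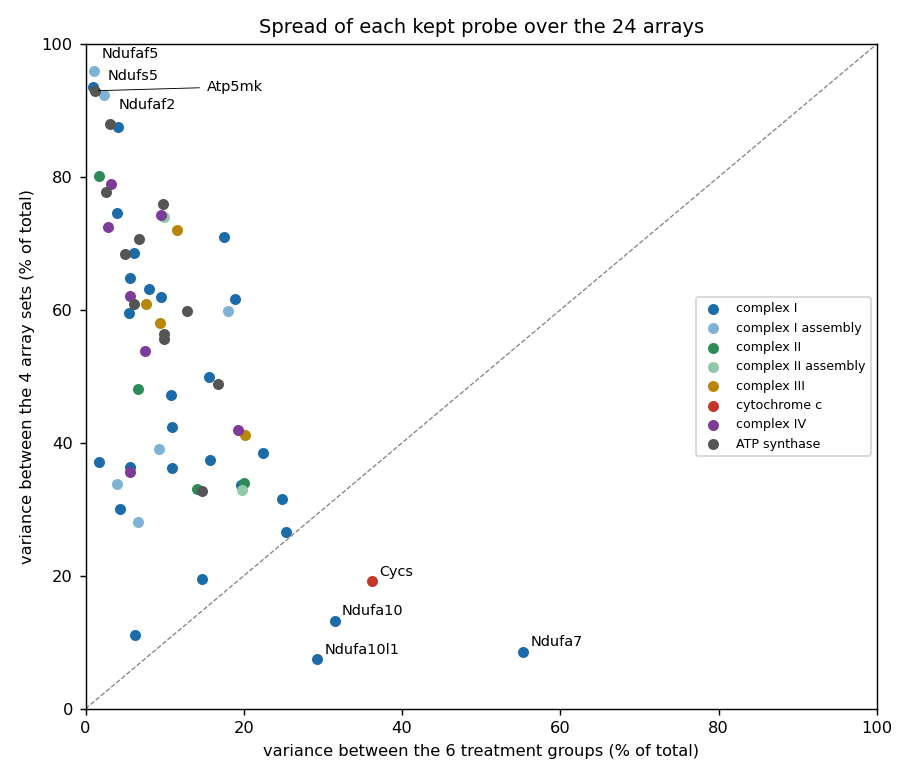
Share of each kept member's variance over the 24 arrays that lies between the 6 treatment groups (horizontal axis, %) and between the 4 array sets (vertical axis, %), coloured by complex. The dashed line marks equal shares. Only Ndufa7, Cycs, Ndufa10 and Ndufa10l1 lie below the line, and Ndufaf5, Ndufs5, Atp5mk and Ndufaf2 reach more than 90% between sets.

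The most variable kept members followed the sets almost wholly. Atp5mk, a small membrane subunit of the ATP synthase (SD 0.74), measured between 6.59 and 7.25 on the 6 arrays of set 1 and between 4.76 and 5.62 on the other arrays, and was detected on those 6 arrays only, 1 of each group. Ndufaf5, an assembly factor of complex I (SD 0.60), averaged 8.94 in set 1, 7.37 in set 2, 7.97 in set 3 and 7.78 in set 4, with SDs of 0.11 to 0.14 within sets (n = 6). Ndufs5, an accessory subunit of complex I, averaged 12.26, 11.27, 11.80 and 11.40 in sets 1 to 4, and Ndufaf2, another assembly factor, 7.25, 6.42, 6.80 and 6.20. The treatment groups of these 4 members overlapped throughout, since each group held 1 array of every set. Sdhaf3, an assembly factor of complex II, had the largest SD of its complex (0.26), with 74.0% of its variance between sets. At the other end, Ndufa12 (SD 0.066), Sdhb (0.072), Uqcrfs1 (0.087), and Cox4i1 (0.089) were the steadiest kept members of complexes I, II, III and IV.

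Promoters of the members were also searched for the motifs of 2 factors known from nuclear respiratory genes, NRF-1 and the ETS family member GABP (NRF-2). The NRF-1 core CGCATGCGC was found on either strand in 14.3% of the 63 member promoters and in 1.52% of all 33469, and the ETS core CGGAAG in 52.4% and 16.6%. The promoter of Cycs, on the minus strand at chr4:80984718-80985017 (GRCr8), is shown with its NRF-1 core in capitals, since this gene had the smallest p between vincristine-treated and control rats.
Cycs: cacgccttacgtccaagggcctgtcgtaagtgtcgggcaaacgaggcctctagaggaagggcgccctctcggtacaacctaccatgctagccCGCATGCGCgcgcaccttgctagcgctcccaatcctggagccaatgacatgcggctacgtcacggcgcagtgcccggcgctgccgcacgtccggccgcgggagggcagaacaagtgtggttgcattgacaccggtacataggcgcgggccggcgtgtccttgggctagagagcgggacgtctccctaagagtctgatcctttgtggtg
Its NRF-1 core stood 158 bases before the start. As above, a match does not show that a factor binds.

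Genes of neighbouring mitochondrial pathways, taken from lists of textbook members, gave the same picture. None of 19 kept assembly factors outside the rule, 11 enzymes of the tricarboxylic acid cycle, 15 carriers and pores of the mitochondrial membranes, 10 regulators of mitochondrial biogenesis and 2 genes of ATP supply and the creatine system passed the adjusted threshold in limma between vincristine-treated and control rats. Their median differences in that comparison were -0.013, 0.013, 0.014, -0.0071 and -0.041, beside -0.00089 over all kept probes. At an unadjusted p under 0.05 the count was 1, the brain creatine kinase Ckb, with a difference of -0.09 (SE 0.04, limma adjusted p = 1). The next smallest p belonged to Slc25a4, the adenine nucleotide translocase that exchanges ATP for ADP, with -0.08 (SE 0.04, limma adjusted p = 1). Between opioid-treated and saline-treated rats none of these 57 genes passed the adjusted threshold in limma and 0 passed an unadjusted p of 0.05, and the smallest p was that of the uncoupling protein Ucp2, with -0.09 (SE 0.06, limma adjusted p = 1). Tfam, which packages mitochondrial DNA and acts in its transcription, differed by 0.05 (SE 0.04, limma adjusted p = 1).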

How the data were processed

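Total RNA of lumbar DRG from 24 rats was hybridised to Illumina RatRef-12 arrays, 1 array per rat. The authors deposited signal intensities, not normalized between arrays, with a detection p-value for each probe in steps of 1 over 825. A table of log2 values deposited by the authors matched the log2 of the quantile-normalized signals to within 0.0338. In this re-analysis, neqc of limma 3.58.1 (R 4.3.3) corrected the background by the detection p-values with an offset of 16, and quantile-normalized the intensities. Of 22517 probes, 13787 had 1 gene symbol in the platform annotation and 8730 none. For 13747 the current RefSeq symbol was looked up by Entrez identifier, whether or not it differed from the platform's. A probe was kept if its detection p reached 0.0005 or less, as in the study's methods, on 4 or more arrays (7043 probes). With lmFit and eBayes, 1 linear model with a mean for each of the 6 groups was fitted over the 24 arrays (18 residual degrees of freedom), and p-values were adjusted by Benjamini-Hochberg over all kept probes within each of 12 comparisons and the F-test. The median standard error was 0.118 for 4 against 4 arrays (members 0.0889) and 0.0682 for 12 against 12 (members 0.0513), which limits the precision. The script was tested on simulated data with known changes. In the data simulated for the comparisons probes varied independently and the sets did not differ, unlike in the real arrays.

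The members and lists were chosen with earlier results of these data known. Named genes were the 4 members with the smallest p in 5 comparisons, members named in the study's tables or an earlier account, isoform pairs of complex IV, members with the largest and smallest SD of each complex, members detected on some arrays only, and in each other pathway list the gene with the smallest p. Ndufs1, Ndufs3, Ndufs8, Ndufv1, Ndufv2, the members never detected and those that passed an unadjusted threshold only with the set block were named after their values were seen. Marker lists covered skeletal muscle, sensory neurons, Schwann cells and satellite glia, adipocytes, red blood cells, macrophages and fibroblasts. Only GEO's labels set the groups, and replicate numbers gave no pairing: the mean r between residuals of same-numbered arrays was 0.0447, and only 5 of the 24 correlated best with their own number, whereas within sets the mean r was 0.412, and 19 arrays correlated best with their own set. Alternatives were other background correction, scaling, filters, variance models and blocks, the deposited log2 values, the methods' t-test, each array left out, and the arrays high in muscle markers left out.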

Additional observations from a re-analysis of the deposited data

Results flagged for a closer look

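Among 222 groups of 4 arrays, 174 of the 29 named members and 48 of the levels of complexes and of all members, 9 held an array whose gap to its nearest neighbour exceeded Dixon's 95% critical share of the group's range. Chance flags about 1 in 20 groups. Atp5mk gave 3 of the 9, with 7.13 in replicate 1 of vincristine-oxycodone (others 5.07 to 5.36), 6.88 in replicate 2 of vincristine-saline (others 5.39 to 5.62) and 7.25 in replicate 1 of saline-saline (others 5.12 to 5.30), each the array of set 1 in its group. Cox6a2 was at 7.62 (others 4.43 to 4.55) and Cox8b at 7.24 (others 4.76 to 4.91) in replicate 4 of saline-morphine, the array with the highest mean of muscle markers (9.65). Cox8b was also flagged at 4.49 in replicate 1 of vincristine-saline and at 5.11 in replicate 4 of saline-oxycodone, where no array reached the detection cutoff. Atp5mg, a membrane subunit of the ATP synthase, was low at 11.47 in replicate 1 of vincristine-oxycodone (others 11.76 to 11.82), and Ndufab1 was low at 11.65 in replicate 1 of saline-oxycodone (others 11.75 to 11.77).

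Cox6a2 and Cox8b lay outside the fitted probes, since each passed the detection cutoff on only 3 arrays. In saline-saline rats, the group given neither drug, neither gene passed it on any array.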

How the results depend on the processing

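No member passed the adjusted threshold in any comparison under any alternative run: the count stayed at 0 in all 467 recomputed counts, with each array left out in turn (0 to 0) and with the set or the replicate number as a block (0 with the replicate block). The 831 recomputed values of named members kept their direction and their side of the threshold. Of 288 recomputed complex levels 21 moved by more than 1 SD within groups. Median centring gave morphine minus oxycodone differences in control rats of 0.188 for complex I, 0.214 for its assembly factors, 0.221 for complex II, 0.251 for its assembly factors, 0.213 for complex III, 0.288 for cytochrome c, 0.188 for complex IV, 0.204 for the ATP synthase and 0.200 for all members, beside a median of 0.19 over all kept probes. Without the arrays high in muscle markers, morphine minus oxycodone in vincristine-treated rats was 0.0306 for all members, 0.0596 for complex I, 0.0552 for complex II and 0.0504 for complex IV, with 2 arrays left in each group; all but complex I had the other sign over all arrays. The arrays left lie in different sets, and within set 1, the one both groups keep, the difference was -0.0356 for all members, -0.00934 for complex I, -0.0620 for complex II and -0.0473 for complex IV. The looser filter and no filter, which bring Cox6a2 and Cox8b into complex IV, moved its level to other values, of the opposite sign for vincristine minus control and for morphine minus oxycodone in vincristine-treated rats: 0.0665 and 0.0624 for vincristine minus control, 0.0933 and 0.0840 for opioid minus saline, 0.111 and 0.105 for morphine minus oxycodone in vincristine-treated rats and 0.175 and 0.160 in control rats. Over all 24 arrays the set block leaves the levels as they are, since each set holds 1 array of every group. The mean over several probes of a gene was not run, since each member has 1 probe. With 4 arrays per group precision was limited: 47.6% of the members' 95% intervals for morphine minus oxycodone in control rats lay within ±0.25. Genes below the detection cutoff have no level here.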
